A study of Mus musculus with 5 samples.

Results

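The interleukin system was examined in stromal cells of the mouse oviduct (fallopian tube) with and without floxed Esr1, which encodes estrogen receptor alpha. The genes were taken by symbol: every row of the expression table whose symbol consists of Il, a number and, where present, further lower-case letters or digits. This gave 84 genes of 23857, of which 37 encode ligands, 38 receptor chains, and 6 decoy receptors, binding proteins or antagonists. The other 3 are Il4i1 and Il4i1b, named for induction by interleukin 4, and Il1bos, a transcript antisense to Il1b.

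YFP-positive cells were sorted from oviducts of young adult female mice, and RNA of 5 mice was sequenced, 1 library per mouse. All the mice carried Pdgfra-Cre, a recombinase under the promoter of the mesenchymal gene Pdgfra, and the R26Y reporter, which yields YFP where the recombinase has acted. The 2 control mice (numbers 2 and 3) were Pdgfra-Cre;R26Y, and the 3 others (numbers 1, 2 and 3) were Pdgfra-Cre;Esr1(fl/fl);R26Y. The latter are called knockout mice 1, 2 and 3 here, after their label.

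Interleukins are secreted signals by which leukocytes, epithelia and fibroblasts address each other. Most act through receptors of 2 or more chains, one that recognises the ligand and one shared with other ligands: Il6st (gp130) serves the interleukin 6 family, Il2rg the common gamma chain family, Il1rap the interleukin 1 family, Il10rb the interleukin 10 family and Il17ra the interleukin 17 family. Interleukin 1 signals run through MyD88 and NF-kappaB, and most of the others through JAK kinases and STAT factors. Fibroblasts are known as sources of interleukins 6, 11 and 33 and as responders to interleukins 1, 4, 13 and 17.

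Values are TPM, each gene's share of all transcripts corrected for its length, with the same total in every library. Esr1 itself stood at 83.3 and 77.6 TPM in controls against 28.9, 85.0 and 170 TPM in the mice labelled knockout (1, 2, 3), so in 2 of the 3 libraries labelled knockout its level went against the label. Values per gene do not show whether floxed exons were absent. The depth of the libraries, estimated from the steps between low values, was 66.1% of that of control mouse 2 in control mouse 3 and 48.7%, 83.4% and 66.9% in knockout mice 1, 2 and 3. Summed stromal markers, 8 genes, stood at 19141 to 23681 TPM in controls and 12711 to 16205 TPM in the knockout mice: Lum, Col1a1, Col1a2 and Col3a1 lay lower without overlap, while Dcn, Pdgfrb, Pdgfra and Vim overlapped, with log2 fold changes of 0.13 for Pdgfra and 0.093 for Vim. Markers of other cells were present as well. Summed over the list, epithelial markers (10 genes) were at 3065 and 3334 TPM in controls and 2163, 12066 and 13169 TPM in knockout mice 1, 2 and 3. The secretory gene Ovgp1 made up most of this, and the other 9 genes summed to 791 and 871 TPM against 641, 1410 and 1912 TPM, with Krt7 and Cldn4 near equal between the groups (log2 fold changes -0.018 and 0.010). Macrophage markers (8 genes) were at 2497 and 3147 TPM against 1897, 1244 and 856 TPM, and mast cell markers (6 genes) at 303 and 372 TPM against 91.8, 73.2 and 58.0 TPM. All 8 macrophage and all 6 mast cell markers lay below both controls in every library labelled knockout, and of these 14 only the mast cell gene Fcer1a was listed at 0, in knockout mouse 3.

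Of the interleukin ligand genes tested 28 of 32 had a fold change below 0 in the libraries labelled knockout, as had 24 of 34 receptor chains and 52.2% of all genes tested, and 1 ligand, Il33, lay higher without overlap. Genes with at least 1 TPM in at least 2 libraries were tested with limma on log2(TPM + 1), a scale that understates changes of low genes, and p-values were adjusted over all 19292 genes tested. The controls alone can meet this filter, as for Il1f9 (1.07 and 2.46 TPM, against 0.511 TPM or less in the knockout mice). The counts of lower ligands thus include low genes that the filter let in through the group where they were high. Of the 84 interleukin genes 70 were tested: 32 ligands, 34 receptor chains and 4 decoys or inhibitors. None had an adjusted p under 0.05, where 0.0259% of all tested genes did (5 genes, 0.0104% higher and 0.0156% lower). At an unadjusted p under 0.05 there were 13 lower and 1 higher of the 32 ligands and 8 lower and 0 higher of the 34 receptor chains. Over all genes tested, 9.87% were lower and 3.70% higher by that rule. Among the decoys and inhibitors 1 of 4 was lower. The groups did not overlap for 14 lower and 1 higher ligand and for 10 lower and 1 higher receptor chain, where 21.9% of all tested genes were lower and 11.9% higher without overlap. The median log2 fold change was -0.62 over the ligands tested, -0.25 over the receptor chains and -0.022 over all genes tested. Without the filter these medians were -0.53, -0.21 and -0.065, and with a mean of at least 5 TPM -0.48, -0.20 and 0.099. With bulk RNA, fewer cells of a type and less RNA per cell cannot be told apart.

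The count of calls depended on which libraries entered. Without knockout mouse 1, the shallowest library, 12 of 70 genes passed, 9 lower and 3 higher, where 7.98% of all genes tested did. With knockout mouse 1 alone against the controls, an alternative chosen because Esr1 was not low in the other two, Il4ra and Il33 passed, where 0.374% of all genes did. In that fit the lone library was assumed to vary like the controls. With libraries weighted by their fit 9 passed, where 3.40% of all genes did. Without knockout mouse 2, without knockout mouse 3 and without either control, 0 interleukin genes passed, with 21, 20, 11 and 11 at an unadjusted p under 0.05 (limma), or 30.4%, 28.6%, 16.2% and 15.9% of those tested. The shares over all genes in the same fits were 12.9%, 10.2%, 5.61% and 5.81%. The fits without a control likewise assumed that the lone library varied like the others.

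**Figure D1:**
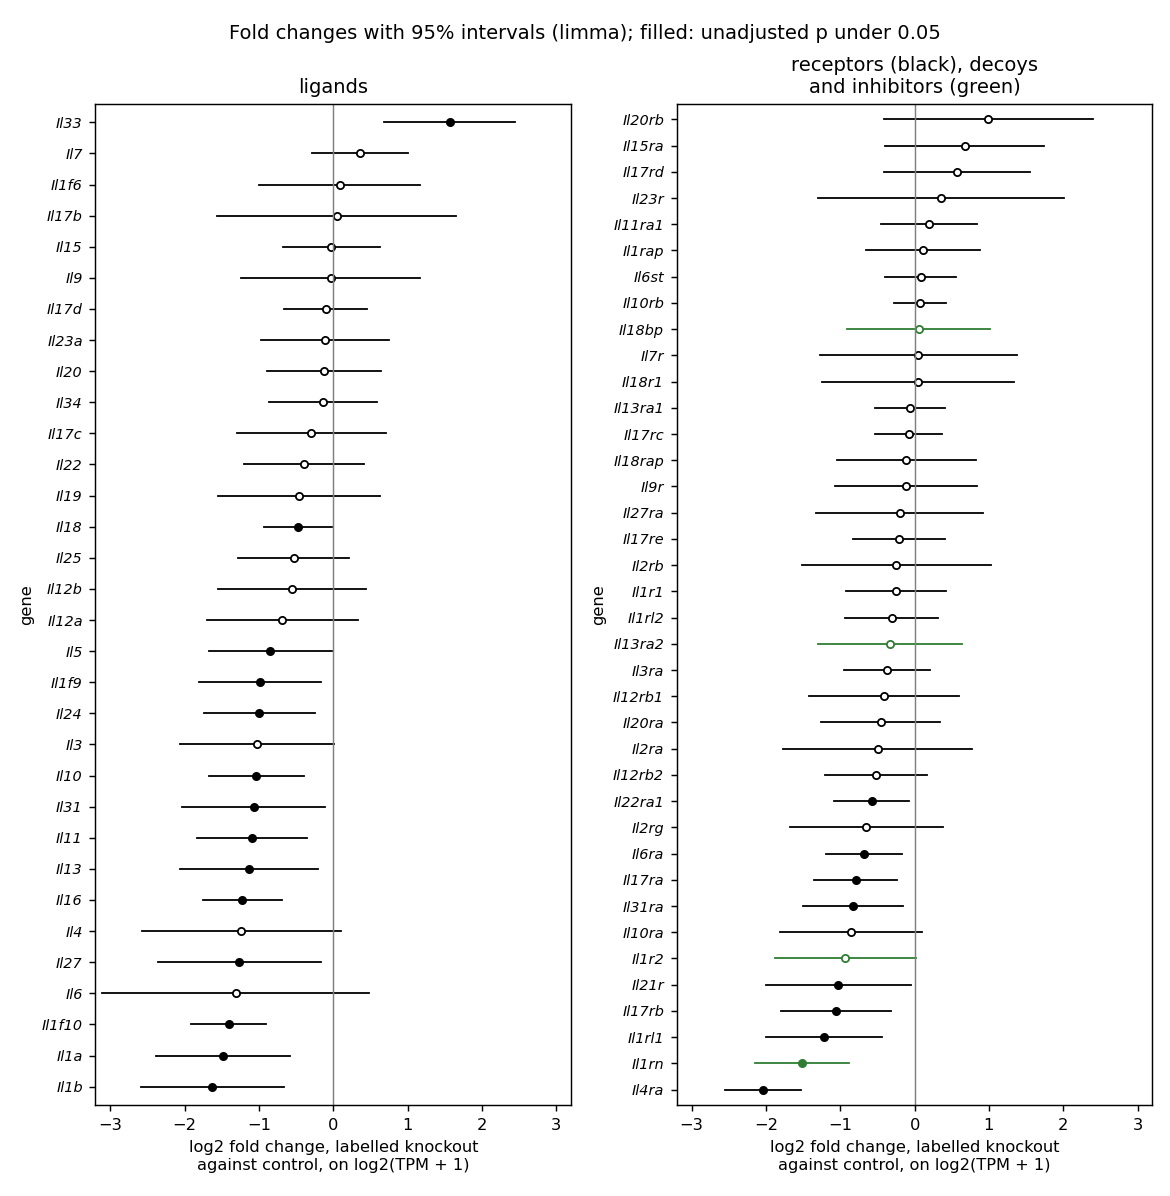
Log2 fold changes (labelled knockout against control, on log2(TPM + 1)) with 95% intervals from limma for the 70 interleukin genes tested, ligands on the left and receptors, decoys and inhibitors on the right, sorted by fold change. Filled points have an unadjusted p under 0.05; Il33 is the only filled point to the right of 0, Il4ra lies farthest to the left, and none of the genes had an adjusted p under 0.05.

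Il4ra had the largest log2 fold change of the 70 genes tested on log2(TPM + 1). It encodes the chain that binds interleukin 4 and, paired with Il13ra1, receives interleukin 13. Control mice 2 and 3 had 139 and 107 TPM of it, and knockout mice 1, 2 and 3 had 23.3, 33.2 and 31.3 TPM. All 3 libraries labelled knockout lay far below both controls and close to each other. The means, 123 ± 22.2 TPM (SD, n = 2) and 29.3 ± 5.27 TPM (SD, n = 3), differed 4.20-fold, and those of the low gene Il1f9 4.89-fold. The log2 fold change of Il4ra was -2.04 (standard error 0.22, 95% interval -2.55 to -1.52), with a limma adjusted p of 0.0666. With a pseudocount of 0.1 it was -2.07, and that of Il31 was -2.55. The value for Il4ra ranged from -2.34 to -1.85 over 15 alternatives, and both ends came from fits with a lone library in a group. Such fits are left aside for the adjusted p-values that follow. Il4ra passed the threshold with quantile normalization and without Rpph1 and Rn45s (limma adjusted p 0.0299 and 0.0437). Library weights and leaving out knockout mouse 1 did the same (limma adjusted p 0.00973 and 0.0132). With the mouse number as a block the adjusted p was 0.00368, but no label pairs the mice. In the other such fits Il4ra did not pass. The limma adjusted p was 0.187 without knockout mouse 2, 0.0926 without knockout mouse 3 and 0.137 with eBayes without trend. With a pseudocount of 0.1 it was 0.0912, and without a filter 0.0844. With a mean of at least 5 TPM it was 0.0768, and with median-of-ratios scaling 0.0508. The gene lies at chr7:125552271-125579474 and shares exon bases with Gm44876 on the opposite strand, whose reads cannot be told apart without strand. The approximate number of reads behind the value was 912 in knockout mouse 1 and more in every other library.

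The promoter of Il4ra, chr7:125552021-125552320 on the plus strand of GRCm38.p6, is shown because the gene had the largest log2 fold change on log2(TPM + 1). Both annotated promoters of Il33, chr19:29924863-29925162 and chr19:29945540-29945839 on the plus strand, are shown because that gene went the other way. Each runs from 250 bases before to 50 bases after a RefSeq transcript start. Capitals mark a match to an NF-kappaB motif in Il4ra (GGG and CC with 5 bases between, either strand) and to a STAT6 motif in the first Il33 promoter (TTC and GAA with 4 bases between).
Il4ra: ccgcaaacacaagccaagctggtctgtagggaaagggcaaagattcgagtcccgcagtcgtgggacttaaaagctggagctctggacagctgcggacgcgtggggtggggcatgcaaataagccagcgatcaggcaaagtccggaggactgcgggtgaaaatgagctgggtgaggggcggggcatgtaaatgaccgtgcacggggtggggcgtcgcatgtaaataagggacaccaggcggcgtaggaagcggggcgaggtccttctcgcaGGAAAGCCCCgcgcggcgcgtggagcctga
Il33 start 1: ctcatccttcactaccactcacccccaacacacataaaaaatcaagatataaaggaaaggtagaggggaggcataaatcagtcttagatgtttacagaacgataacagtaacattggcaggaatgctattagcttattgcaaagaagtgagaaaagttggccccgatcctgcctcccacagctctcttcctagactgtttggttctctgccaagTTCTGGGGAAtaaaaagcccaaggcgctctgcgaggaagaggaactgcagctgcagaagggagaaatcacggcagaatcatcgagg
Il33 start 2: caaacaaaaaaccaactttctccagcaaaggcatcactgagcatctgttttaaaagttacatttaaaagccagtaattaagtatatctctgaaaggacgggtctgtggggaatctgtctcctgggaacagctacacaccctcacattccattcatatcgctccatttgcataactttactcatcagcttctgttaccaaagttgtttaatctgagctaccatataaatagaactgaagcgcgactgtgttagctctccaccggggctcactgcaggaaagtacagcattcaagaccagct
The NF-kappaB motif occurs in 50.8% of all 32851 RefSeq promoters of this length and in 52.4% of the 82 promoters found for the interleukin genes, which cover 67 of the 84. The STAT6 motif occurs in 6.95% and 22.0%. Another STAT spacing (TTCNNNGAA) occurs in 8.30% and 13.4% and an AP-1 motif (TGANTCA) in 7.81% and 17.1%. The palindromic estrogen response element, GGTCA and TGACC with 3 bases between, was found in 0 of the 82 and in 0.0700% of all promoters. The shares count promoters, and overlapping promoters of the same gene can hold the same match, as for Il1rn. Both strands were searched, and the motifs may overlap. These are matches of letters in this window, not binding sites.

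In the rest of the interleukin 4 and 13 system the ligand Il13 also lay lower without overlap, and the partner chains and Il4 overlapped. Il13ra1, its partner chain, was at 41.4 and 42.0 TPM in controls and at 32.2, 46.2 and 42.7 TPM in the knockout mice, with a log2 fold change of -0.063 (95% interval -0.53 to 0.41). Il2rg, the other partner of Il4ra, was at 37.9 and 28.2 TPM in controls and at 33.1, 23.9 and 10.7 TPM, with overlap between the groups. Il13ra2, a decoy for interleukin 13, was at 0.853 to 3.36 TPM in all libraries. The ligands were low: Il13 was at 4.18 and 2.38 TPM in controls and at 0.701, 1.84 and 0.420 TPM in the knockout mice, and Il4 was at 5.23 and 2.67 TPM against 2.70, 0 and 1.25 TPM. Il13 corresponded to about 67.5 and 25.4 reads in controls and 5.51, 24.8 and 4.54 reads in the knockout mice. Mast cells are a known source of both, and the mast cell sums are given above. Ptprc, a gene of all leukocytes, was at 54.6 and 50.8 TPM in controls against 46.6, 30.4 and 15.6 TPM in knockout mice 1, 2 and 3. The part of mast cells and other leukocytes in the Il4ra, Il4 and Il13 levels was not tested.

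Among ligands of the interleukin 1 family, Il33 lay higher and Il1a, Il1b, Il18 and Il1f10 lay lower in the libraries labelled knockout. Il33 encodes a nuclear alarmin of fibroblasts, endothelium and epithelium. The gene lies at chr19:29925113-29960718. It was at 38.0 and 29.2 TPM in controls against 169, 89.3 and 67.6 TPM in knockout mice 1, 2 and 3. Every library labelled knockout lay above both controls, mouse 1 the most. The log2 fold change was 1.57 (standard error 0.37, 95% interval 0.69 to 2.45, limma adjusted p 0.197), and the means of 33.6 ± 6.17 TPM (SD, n = 2) and 109 ± 53.3 TPM (SD, n = 3) differed 3.23-fold. The log2 fold change of Il33 was 1.198 without knockout mouse 1 (limma adjusted p 0.0276) and 2.31 with that mouse alone (adjusted p 0.0371, from a lone library), and adjusted p ran from 0.00767 to 0.767 over 15 alternatives. Endothelial marker sums (7 genes, none at 0) were 201 and 225 TPM in controls and 171, 251 and 150 TPM in knockout mice 1, 2 and 3, and epithelial sums are given above. The part of these cells in the Il33 level was not tested. Il1rl1 (ST2), the receptor of interleukin 33, was at 7.11 and 8.19 TPM in controls and at 3.97, 3.02 and 1.55 TPM in the knockout mice, each under the lower control (log2 fold change -1.22, standard error 0.33, limma adjusted p 0.224). Mast cells are known to carry this receptor.

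Il1b, an inflammatory cytokine of myeloid cells, was at 91.7 and 115 TPM in controls against 51.8, 36.6 and 18.0 TPM in knockout mice 1, 2 and 3. Il1a, which signals through the same receptor, was at 6.86 and 9.61 TPM against 3.95, 2.23 and 1.19 TPM. The 2 genes had the same order of the 5 libraries, from control mouse 3 at the top to knockout mouse 3 at the bottom. Their log2 fold changes were -1.63 (standard error 0.41, limma adjusted p 0.204) and -1.48 (standard error 0.38, limma adjusted p 0.211). Summed macrophage markers followed that order too, and their part in these levels was not tested. Il1rn, the antagonist that blocks the interleukin 1 receptor, was at 9.97 and 15.8 TPM in controls and at 4.29, 3.34 and 3.69 TPM in the knockout mice (log2 fold change -1.51, standard error 0.26, limma adjusted p 0.132). Il1r2, a decoy receptor, was at 6.13 and 5.21 TPM against 3.37, 3.72 and 1.05 TPM, also without overlap (limma adjusted p 0.373). The signalling receptor Il1r1 was more abundant, at 48.9 and 36.4 TPM in controls and 48.4, 35.5 and 25.7 TPM in the knockout mice. Its groups overlapped and its log2 fold change of -0.25 had an interval of -0.92 to 0.43. Il1rap, the shared second chain, was at 4.93 to 9.85 TPM with overlap. Reads of Il1b and of the antisense Il1bos, which overlap on opposite strands, cannot be told apart without strand. Il1bos stayed at 2.81 TPM or less in every library.

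Il18, made as a precursor that caspase-1 activates, was at 31.2 and 26.9 TPM in controls and at 17.4, 22.9 and 21.7 TPM in the knockout mice (log2 fold change -0.48, standard error 0.19, limma adjusted p 0.355). Il18bp, its soluble inhibitor, was lowest in knockout mouse 1, at 15.5 TPM, and reached 37.1 and 35.5 TPM in mice 2 and 3, against 33.5 and 20.6 TPM in controls. Il1f10, which encodes interleukin 38, was at 11.8 and 11.2 TPM in controls and at 3.84, 4.0 and 3.38 TPM in the knockout mice. The values within each group were close, and the log2 fold change was -1.40 (standard error 0.21, limma adjusted p 0.117). About 13.5 to 85.4 reads lay behind these values. Of the interleukin 36 ligands, Il1f6 and Il1f8 were at 2.36 TPM or less in all libraries, and Il1f9 was at 1.07 and 2.46 TPM in controls against 0.158, 0.415 and 0.511 TPM. Their receptor Il1rl2 was at 18.9 to 33.6 TPM, with overlap between the groups.

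**Figure D2:**
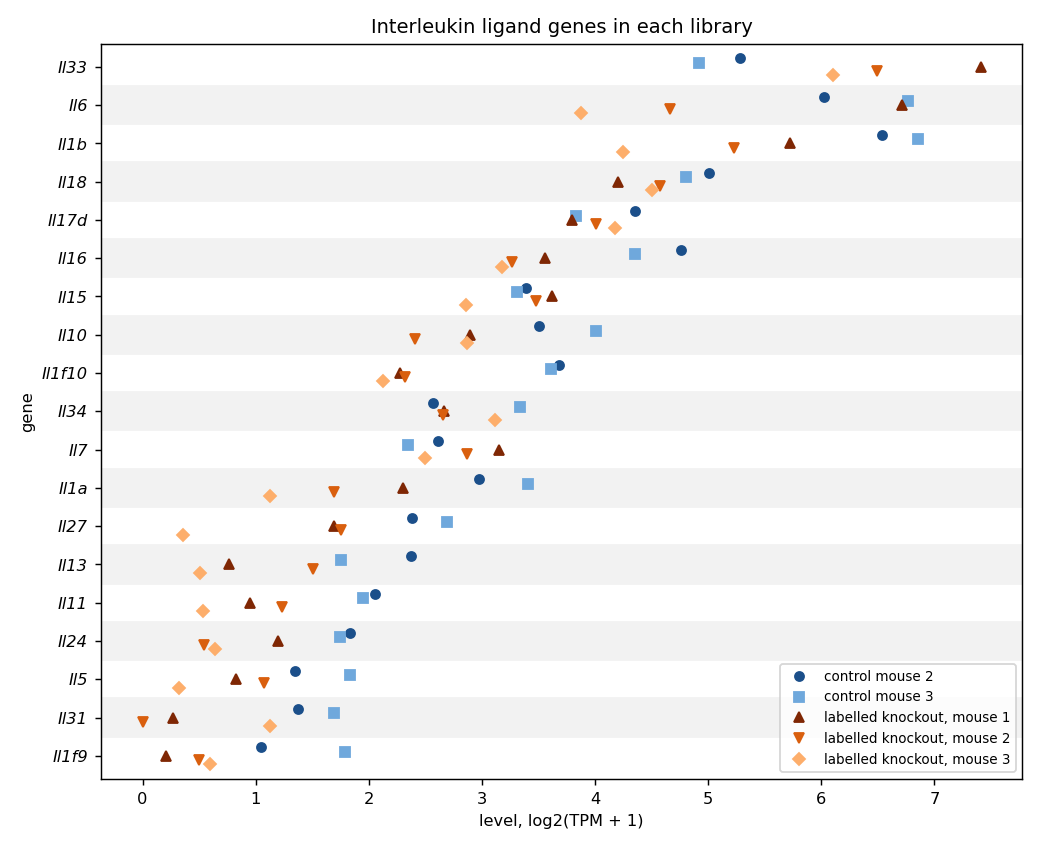
Levels of the 19 ligand genes named, as log2(TPM + 1), 1 point per library, with genes ordered from the lowest mean at the bottom to the highest at the top. Il33 points of the libraries labelled knockout lie to the right of both controls (67.6 to 169 against 29.2 and 38.0 TPM), those of Il1b, Il16 and Il1f10 to the left, and Il6 of knockout mouse 1 lies among the controls.

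In the interleukin 6 family the shared chain was abundant and differed little, and the ligand varied more within the knockout label than between the labels. Il6st, the signal transducer gp130, was the most abundant of the 84 genes, at 239 and 186 TPM in controls and 206, 205 and 263 TPM in the knockout mice. Its log2 fold change was 0.08, with an interval of -0.40 to 0.56. Il6 was at 64.1 and 108 TPM in controls against 104, 24.4 and 13.6 TPM in knockout mice 1, 2 and 3. Mouse 1 lay between the controls, and mice 2 and 3 lay below both. The log2 fold change was -1.31 (standard error 0.76, limma adjusted p 0.464), -2.13 without knockout mouse 1 and 0.32 with that mouse alone. Genes induced by handling and dissociation (10 genes, none at 0) were also lowest in mice 2 and 3, with sums of 8766 and 10123 TPM in controls and 9110, 6037 and 4719 TPM in the knockout mice. Their part in the Il6 level was not tested. Il6ra, the specific chain, was at 34.3 and 29.1 TPM in controls and at 22.9, 20.6 and 15.4 TPM in the knockout mice, each under the lower control (log2 fold change -0.68, standard error 0.22, limma adjusted p 0.288).

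Il11, a fibroblast cytokine of the same family, was at 3.17 and 2.85 TPM in controls and at 0.936, 1.35 and 0.449 TPM in the knockout mice, or about 88.3 and 52.6 against 12.7, 31.4 and 8.38 reads (limma adjusted p 0.237). Its receptor Il11ra1 was among the most abundant, at 63.8 and 63.7 TPM in controls and 105, 54.7 and 68.2 TPM in the knockout mice, with mouse 1 alone standing above the rest. Il11ra2, a near copy of Il11ra1, was listed at 0 in all libraries, so how reads were shared between the copies is uncertain. Il27ra, which pairs with gp130, was at 3.45 to 13.9 TPM with overlap. Il31ra, which pairs with the oncostatin M receptor, was at 6.29 and 3.83 TPM in controls and at 2.51, 1.93 and 2.63 TPM in the knockout mice (log2 fold change -0.83, limma adjusted p 0.312). The ligands of these receptors, Il27 and Il31, were at 5.45 TPM or less in every library, and Il31 was listed at 0 in knockout mouse 2.

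Receptor chains of the interleukin 17 family diverged. Il17ra, the common chain, was at 31.998 and 21.0 TPM in controls and at 14.2, 16.8 and 13.0 TPM in the knockout mice (log2 fold change -0.79, standard error 0.24, limma adjusted p 0.259). Il17rb, which receives interleukins 17B and 25, was at 9.21 and 16.9 TPM against 6.54, 6.01 and 4.22 TPM (log2 fold change -1.06, limma adjusted p 0.255). The groups did not overlap for either. Il17rc, the partner of Il17ra, was at 11.5 to 14.2 TPM throughout, with a log2 fold change of -0.08 and an interval of -0.53 to 0.37. Il17re, of the receptor of interleukin 17C, was at 9.02 to 15.5 TPM. Il17rd (Sef), also known as an inhibitor of fibroblast growth factor signalling, was at 18.3 and 16.7 TPM in controls and 14.2 TPM in knockout mouse 1, but at 31.0 and 41.6 TPM in mice 2 and 3. Among the ligands Il17d was the most abundant, at 12.9 to 19.5 TPM with overlap, and Il17a and Il17f stayed at 1.84 TPM or less.

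In the interleukin 10 family, Il10, an inhibitory cytokine, was at 10.3 and 15.1 TPM in controls and at 6.43, 4.31 and 6.29 TPM in the knockout mice, each under the lower control (log2 fold change -1.03, standard error 0.27, limma adjusted p 0.212). Its leukocyte chain Il10ra was at 17.5 and 17.0 TPM in controls against 16.8, 7.59 and 5.70 TPM in knockout mice 1, 2 and 3. The shared chain Il10rb hardly varied, at 63.9 to 69.1 TPM in all libraries. Its groups did not overlap, yet the log2 fold change was 0.075 (interval -0.27 to 0.42), and it was -0.056 after quantile normalization. Il20rb, a chain for interleukins 19, 20 and 24 that is known from epithelia, was at 20.3 and 15.7 TPM in controls, 14.0 TPM in knockout mouse 1 and 53.7 and 63.5 TPM in mice 2 and 3. Il20rb and Il17rd shared this order of groups with the summed epithelial markers, whose part in it was not tested. Without knockout mouse 1 both passed the threshold, with log2 fold changes of 1.65 and 1.00 (limma adjusted p 0.0140 and 0.0333). With all 5 libraries they did not (0.478 and 0.540), nor with library weights (0.0716 and 0.110). With the mouse number as a block the limma adjusted p was 0.00823 and 0.0275, but no label pairs the mice. Il22ra1 was at 7.32 and 7.36 TPM in controls and 4.98, 4.34 and 4.46 TPM in the knockout mice (log2 fold change -0.58, limma adjusted p 0.334).

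**Figure D3:**
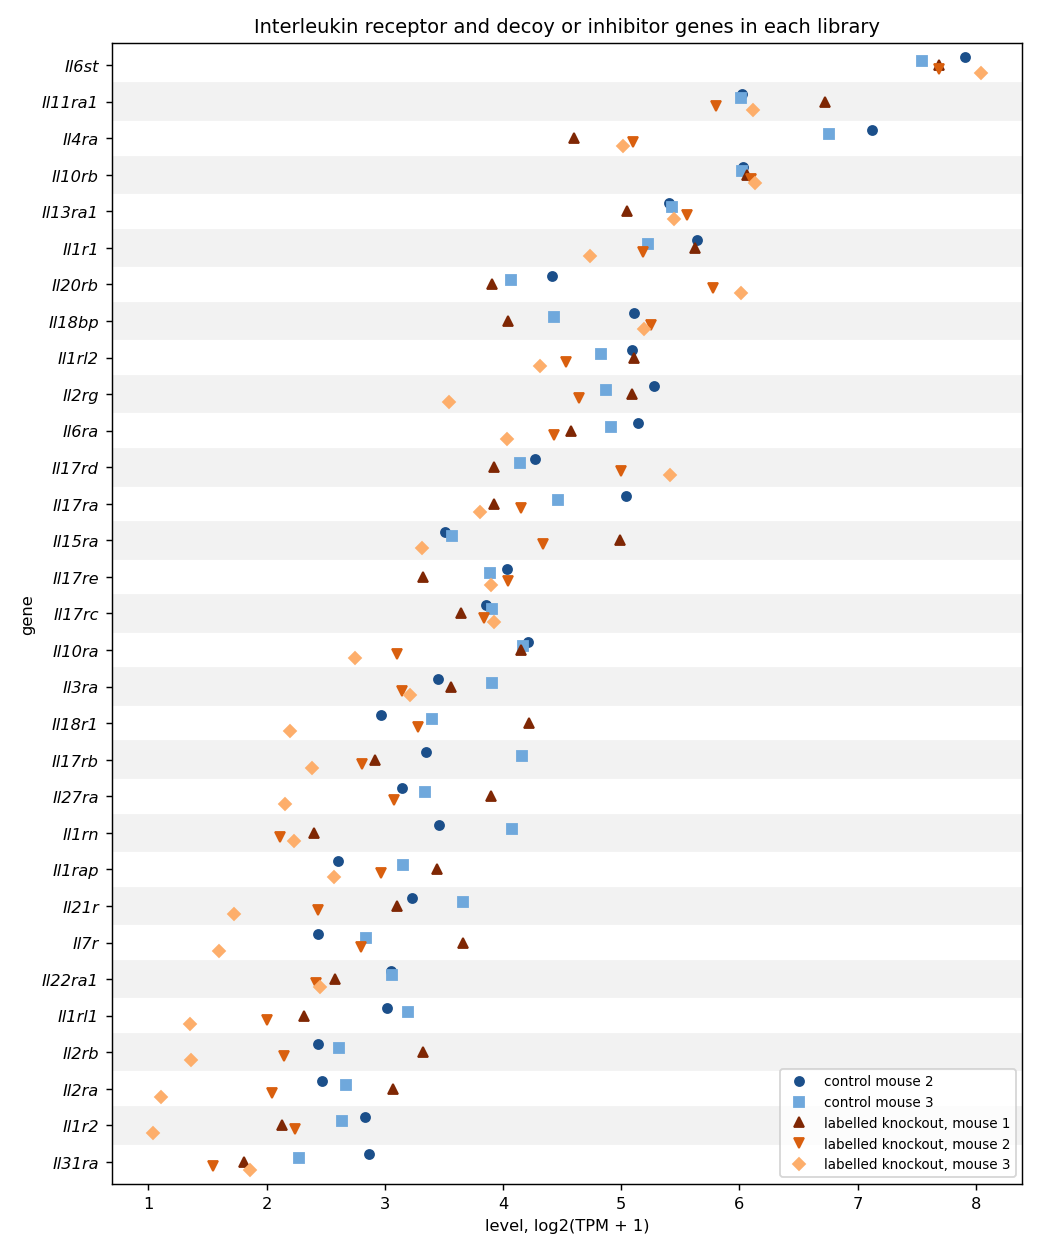
Levels of the 28 receptor genes and 3 decoy or inhibitor genes named, as log2(TPM + 1), 1 point per library, ordered by mean level. Il4ra separates the controls (107 and 139 TPM) from the libraries labelled knockout (23.3 to 33.2 TPM), Il10rb barely spreads, and Il20rb and Il17rd of knockout mice 2 and 3 lie to the right of the other 3 libraries.

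Receptor genes known from lymphocytes did not follow 1 pattern. Il7r, the interleukin 7 receptor of T cells and innate lymphoid cells, was at 4.40 and 6.16 TPM in controls against 11.7, 5.96 and 2.03 TPM in knockout mice 1, 2 and 3. Il18r1 was at 6.82 and 9.57 TPM against 17.6, 8.71 and 3.59 TPM, and Il2rb at 4.39 and 5.11 TPM against 9.0, 3.43 and 1.57 TPM. Il23r was at 1.88 and 2.05 TPM against 8.10, 3.13 and 0.456 TPM. These 4 were highest in knockout mouse 1 and lowest in knockout mouse 3. So were Il2ra, Il12rb1, Il15ra, Il18rap, Il27ra, Il1rap and Il1rl2, with Il2ra at 4.53 and 5.38 TPM against 7.42, 3.13 and 1.16 TPM. Il21r and Il12rb2 instead lay lower without overlap, Il12rb2 at 1.77 and 2.22 TPM against 1.15, 1.43 and 0.743 TPM, and Il2rg was highest in control mouse 2. Of the T and NK cell markers, Cd3e and Cd3g were at 35.9 and 40.4 TPM in knockout mouse 1 and 2.57 and 1.57 TPM in knockout mouse 3, against 9.24 to 13.7 TPM in controls. Cd2 lay lower without overlap, at 18.8 and 26.3 TPM against 10.8, 13.7 and 7.29 TPM, and Cd3d and Nkg7 were at 4.25 TPM or less. Summed T and NK cell markers (5 genes, none at 0) were 44.5 and 57.3 TPM in controls and 92.7, 49.3 and 15.9 TPM in the knockout mice. Their part in these receptor levels was not tested. Il15ra, a broadly expressed chain, was at 10.4 and 10.8 TPM in controls and at 30.8, 19.3 and 8.95 TPM in the knockout mice. Its ligand Il15 was at 6.26 to 11.3 TPM and Il7 at 4.08 to 7.90 TPM, both with overlap. Il21r was at 8.38 and 11.6 TPM against 7.59, 4.40 and 2.30 TPM (log2 fold change -1.02, limma adjusted p 0.354). Il3ra, which pairs with the common beta chain, was at 7.87 to 14.0 TPM with overlap.

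Over all tested genes the extremes were placed otherwise. Knockout mouse 1 was the highest library for 35.3% of the 34 receptor chains tested and for 8.32% of all genes tested. Knockout mouse 3 was the lowest for 59.4% of the 32 ligands, 58.8% of the receptor chains and 29.3% of all genes tested. It was knockout mouse 1 that was lowest for 31.0% of all genes tested. Control mice 2 and 3 held the highest value of 34.4% and 40.6% of the ligands and of 21.3% and 20.3% of all genes tested.

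**Figure D4:**
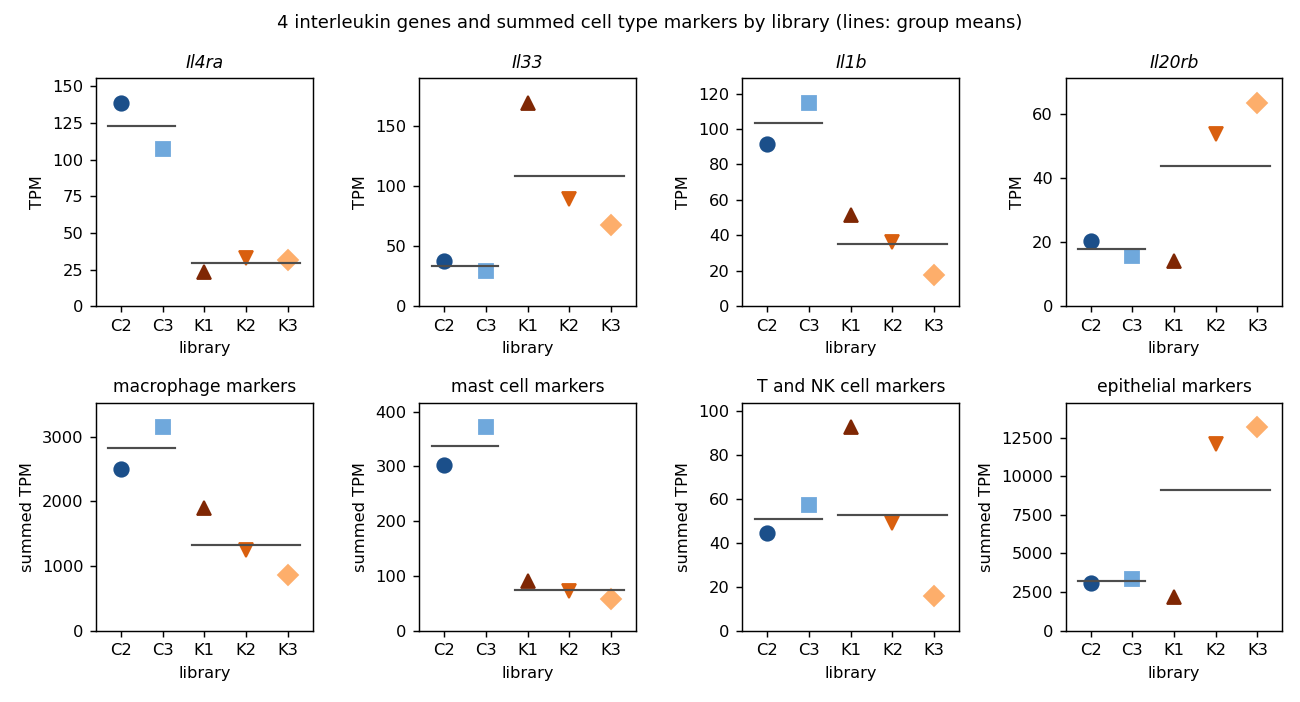
TPM of Il4ra, Il33, Il1b and Il20rb (top row) and summed TPM of macrophage, mast cell, T and NK cell and epithelial markers (bottom row) in control mice 2 and 3 (C2, C3) and knockout mice 1, 2 and 3 (K1, K2, K3), with group means as lines and axes from 0. Il1b and the macrophage sum fall into the same order, Il20rb and the epithelial sum are both high in K2 and K3 alone, and Il33 is highest in K1.

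Il16, a chemoattractant that acts through CD4, was at 26.2 and 19.4 TPM in controls and at 10.8, 8.63 and 8.03 TPM in the knockout mice. The log2 fold change was -1.22 (standard error 0.23, limma adjusted p 0.143), and all 3 libraries labelled knockout lay below both controls. Il34, a ligand of the macrophage receptor Csf1r, was at 4.92 and 9.07 TPM in controls and at 5.33, 5.30 and 7.66 TPM, all between the controls. Csf1r itself, a macrophage marker, was at 97.1 and 95.5 TPM in controls and 85.4, 44.3 and 35.3 TPM in the knockout mice.

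Many of the remaining ligands lay near the level of genes that these cells are not known to express. As a reference chosen after the values were seen, the 1117 olfactory receptor genes in the table had a 95th percentile of 1.70 and 2.17 TPM in controls and of 0.975, 1.52 and 0.716 TPM in knockout mice 1, 2 and 3. This level was thus lower in every library labelled knockout than in both controls. Above it in all 5 libraries lay 12 of 37 ligands and 29 of 38 receptor chains. These 12 ligands were Il1a, Il1b, Il1f10, Il6, Il7, Il10, Il15, Il16, Il17d, Il18, Il33 and Il34. Under it in all 5 lay 5 ligands, Il2, Il17a, Il17f, Il20 and Il21, and 4 receptor chains, Il5ra, Il1rapl1, Il1rapl2 and Il11ra2. The other 20 ligands crossed it, among them Il5, Il11, Il13, Il24, Il27, Il31 and Il1f9, which had an unadjusted p under 0.05 with lower values in the libraries labelled knockout. Il24 was at 2.57 and 2.35 TPM in controls against 1.29, 0.454 and 0.558 TPM, and Il5 at 1.54 and 2.56 TPM against 0.775, 1.11 and 0.248 TPM. For these 7 ligands the part of that reference level in the difference was not tested.

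Among signalling genes downstream of the interleukin receptors none passed the adjusted threshold. The 3 genes of each list with the smallest p are named. Counts at an unadjusted p under 0.05 are set against the 9.87% of all genes tested that were lower and the 3.70% that were higher. Of 18 JAK, STAT and SOCS genes, 1 was lower at an unadjusted p under 0.05 (5.56%) and 0 higher, with a median log2 fold change of -0.13. Those with the smallest p were Socs1, a STAT inhibitor, with a log2 fold change of -0.42 (limma adjusted p 0.351), Pias1, another inhibitor, with 0.42 (0.374), and Stat5b, with 0.30 (limma adjusted p 0.501). Pias1 and Stat5b thus had higher means in the libraries labelled knockout. Stat6, the factor that interleukin 4 activates, was at 42.7 to 48.7 TPM in all libraries. Of 18 genes of interleukin 1 signalling 2 were lower (11.1%, near the share of all genes), with a median of -0.039. Tnfaip3 (A20), an NF-kappaB target that restrains NF-kappaB, was at 71.7 and 93.0 TPM in controls and at 47.1, 30.2 and 15.1 TPM in the knockout mice (log2 fold change -1.52, limma adjusted p 0.237). Nfkbia, another inhibitor of this kind, was at 275 and 396 TPM against 219, 203 and 201 TPM (limma adjusted p 0.263), and Nfkbiz was next (0.378).

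Of 9 inflammasome genes, which activate interleukins 1 beta and 18, 3 were lower at an unadjusted p under 0.05 (33.3%, against 9.87% of all genes tested), with a median of -0.55. Macrophage markers, 8 of 8 lower by the same rule with a median of -1.02, moved with them, and their part was not tested. Nlrp3, a sensor of that complex, was at 9.06 and 15.5 TPM in controls and at 5.47, 5.04 and 3.26 TPM in the knockout mice (limma adjusted p 0.209). Casp4 and Casp1, caspases of the same list, followed, with log2 fold changes of -0.99 and -0.56 (limma adjusted p 0.242 and 0.345). Of 7 genes of interleukin 17 signalling 2 were lower (28.6%, against 9.87% of all genes), with a median of -0.077: Zc3h12a (Regnase-1), which degrades cytokine mRNA, and Cebpb, a transcription factor (log2 fold changes -1.03 and -0.86, limma adjusted p 0.198 and 0.215). Traf5 came next (limma adjusted p 0.515).

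Of 16 cytokine and receptor genes that work with interleukin receptors under other names, 15 were tested and 4 were lower at an unadjusted p under 0.05 (26.7%, against 9.87% of all genes tested), with a median of -0.11. Csf2rb, the common beta chain of the receptors for interleukins 3 and 5, was at 21.7 and 18.2 TPM in controls and at 10.7, 8.60 and 5.91 TPM in the knockout mice (log2 fold change -1.18, limma adjusted p 0.192). Lif and Osm, ligands that signal through gp130, were lower as well, Lif at 10.2 and 8.21 TPM against 4.27, 3.59 and 2.06 TPM and Osm at 10.2 and 16.4 TPM against 5.96, 3.83 and 1.57 TPM (limma adjusted p 0.197 and 0.219). Lifr, the receptor chain for Lif, was at 30.3 and 29.6 TPM in controls and at 32.4, 48.8 and 47.0 TPM in the knockout mice (limma adjusted p 0.391).

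Interleukin genes lie in groups along the genome, which the choice by symbol did not use. With a gap of up to 500 kb allowed, 40 of the 84 genes fell into 14 groups (RefSeq, GRCm38.p6, the build named by the submitters being mm10). Of these 40 genes 18 lay lower without overlap (45%), tested or not, among them Il17f, Il1bos and Il4i1b, which were too low to be tested. Il1bos and Il1b overlap in position, as do Il4i1b and Il4i1. Of the 70 interleukin genes tested 37.1% lay lower without overlap, and of all genes tested 21.9%. These shares leave out genes not tested, so the 45% is not directly comparable. The 18 genes lie in 10 of the groups, and 4 groups held none: Il22ra2 with Il20ra, Il2ra with Il15ra, Il2 with Il21, and Il17re with Il17rc. The receptor group of the interleukin 1 family at chr1:40084692-40551707 holds Il1r2, Il1r1, Il1rl2, Il1rl1, Il18r1 and Il18rap. Its members differed: Il1r2 and Il1rl1 lay under the lower control in each library labelled knockout, and the other 4 overlapped. The ligand group at chr2:24153172-24351491 holds Il1f8, Il1f9, Il1f6, Il1f5, Il1f10 and Il1rn, of which Il1f9, Il1f10 and Il1rn lay below both controls. Il1a, Il1b and Il1bos at chr2:129299609-129375733 all did so. Il4ra and its neighbour Il21r, at chr7:125552271-125634397, were both lower without overlap. In the group of Il24, Il20, Il19 and Il10 at chr1:130882074-131024970, Il24 and Il10 were lower without overlap. Of Il4, Il13 and Il5 at chr11:53612460-53725103, Il13 and Il5 were.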

How the data were processed

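RNA of sorted YFP-positive oviductal cells from 2 control and 3 Esr1 floxed mice was prepared with a low-input SMARTer kit, per the labels' protocols. The deposited values are TPM per gene made by the authors, and each library sums to 1000000. The build was mm10, per the submitters' processing notes, and STAR is in the name of the table. The STAR version, counter, annotation, filters and use of strand are not given in the sources used here. Because TPM has a fixed total, an abundant RNA lowers all other values.

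From these values log2(TPM + 1) was fitted with limma 3.58.1 in R 4.3.3 (eBayes with trend, genotype as the only term), for genes with at least 1 TPM in at least 2 libraries. P-values are two-sided and Benjamini-Hochberg adjusted over all genes tested, with a threshold of 0.05. They measure the spread between these mice only. Simulated tables with 200 altered genes each were checked: log2 changes of 1 were found for 0% of them (18872 genes in the fit), of 2 for 87% (18897) and of 3 for 99.5% (18883). The altered genes were drawn from those with a mean log2(TPM + 1) above that of 5 TPM. Noise was drawn for each gene apart, without shifts shared by the genes of a library. Only 12 of the 37 ligands reached 5 TPM in at least 2 libraries, so these shares do not apply to the others.

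Depth and read numbers are approximate. They were estimated in Python 3.11.15 from steps in 1122 single-exon genes and GENCODE M21 exon lengths. The labels name no molecular identifiers, so reads may include PCR copies. Genes named are the 50 with at least 5 TPM in at least 2 libraries, an unadjusted p under 0.05 or a place in a short list of ligands. Il4, Il23r and Il12rb2 were given in full after their values were seen, and others by range. Of the 50, 16 overlap exons of a gene on the opposite strand. Members, lists and rules were chosen with earlier results of these data known. Promoters are from RefSeq.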

Additional observations from a re-analysis of the deposited data

How the results depend on the processing

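With all 5 libraries 2 genes of the whole table were higher, 3 lower, and 0 interleukin ligands and 0 receptor chains passed (limma, adjusted p under 0.05, with 22 interleukin genes lower and 1 higher at an unadjusted p under 0.05). Over the fits without 1 library each, the whole table gave 0 to 1022 higher and 0 to 502 lower genes, ligands passing ran from 0 to 6 and receptor chains from 0 to 5, and the high values came without knockout mouse 1. In fits that left 1 control, it was assumed to vary like the other group. Higher and lower genes of the table were both 0 at a pseudocount of 0.1, and both 0 when the mean had to reach 5 TPM. Higher genes were 1 without a filter, and 0 under quantile normalization, median-of-ratios scaling and eBayes without trend. Receptor chains passing were 1, Il4ra, with quantile normalization and without Rpph1 and Rn45s, where lower genes were 5. Library weights gave 260 higher and 396 lower genes, 6 ligands and 2 receptor chains. Knockout mouse 1 alone, an alternative added after seeing the data, gave 44 higher and 26 lower genes, 1 ligand and 1 receptor chain. The ligand median of -0.62 was -1.14 with a pseudocount of 0.1 and -0.31 with quantile normalization. Both medians stayed below 0 in all 15 alternatives. The cause was not tested.

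The mouse number as a replicate block gave 1165 higher and 693 lower genes, 7 ligands and 8 receptor chains. Mouse 1 has no partner there, so fold changes rest on mice 2 and 3. Deviations from the group means correlated at -0.060 and -0.072 across genes for mice 2 and 3, and no label pairs the mice.

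Of 735 alternative values for the 50 named genes, 642 kept their direction and side of the threshold, 41 came to pass and 52 reversed. Quantile normalization reversed Il10rb (-0.056), Il15 (0.0025), Il18bp (-0.038), Il2rb (0.015) and Il6st (-0.037), and median-of-ratios scaling Il15 (0.013). Without Rpph1 and Rn45s Il18bp (-0.0033), Il18r1 (-0.0079) and Il7r (-0.0010) reversed, and with library weights Il11ra1 (-0.037), Il13ra1 (0.060), Il18r1 (-0.059) and Il7r (-0.027). Under the block Il11ra1 (-0.060), Il13ra1 (0.088), Il17re (0.0066), Il18r1 (-0.44), Il1rap (-0.11) and Il7r (-0.44) did. Knockout mouse 1 alone reversed Il15 (0.27), Il17rd (-0.28), Il18bp (-0.73), Il1r1 (0.19), Il1rl2 (0.15), Il20rb (-0.33), Il27ra (0.66), Il2ra (0.50), Il2rb (0.80), Il2rg (0.016), Il6 (0.32) and Il6st (-0.036). Over the fits without 1 library each, signs also turned for Il11ra1 (-0.06 to 0.40), Il13ra1 (-0.17 to 0.088), Il15 (-0.18 to 0.20), Il17d (-0.36 to 0.16), Il17re (-0.35 to 0.0066), Il18bp (-0.28 to 0.45), Il18r1 (-0.44 to 0.56), Il1rap (-0.16 to 0.39), Il27ra (-0.62 to 0.25), Il2rb (-0.77 to 0.21), Il34 (-0.52 to 0.25), Il6st (-0.10 to 0.26) and Il7r (-0.44 to 0.60).

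Depth limits the low ligands, of which several rest on fewer than 10 reads in a library.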
